A study of Mus musculus with 27 samples.

Results

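Deleting Runx1 or deleting Zeb1 and Zeb2 in mK4 cells moved many transcripts, and 54 of the 24953 genes quantified moved in opposite directions in the knockouts. Of these, 15 were higher in Runx1KO cells and lower in ZebDKO cells, and 39 were lower in Runx1KO cells and higher in ZebDKO cells. A gene was chosen by its measured RNA level when its group mean of log2(TPM + 1) lay over 1 above the control mean in one knockout and over 1 below it in the other, with all 3 libraries of each knockout outside the range of the 3 control libraries. TPM is a transcript level scaled for gene length and to the same sum in every library. Symbols starting with Hox, Slc, Zfp, Hist, or Col and a digit were left out. Because both contrasts chose the members, their differences from control are a description and carry no test. The lack of overlap between the groups of a member likewise follows from the rule.

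mK4 is a mouse cell line derived from kidney metanephric mesenchyme. Control cells were unedited mK4 cells (genotype WT). Runx1KO cells lacked the third exon of Runx1, which holds the start codon used in mK4 cells. ZebDKO cells (Zeb1 and Zeb2 DKO) lacked the second exon of Zeb1 and the first exon of Zeb2, in a line in which Runx1 had not been targeted. No agent was given. RNA-seq had 3 libraries for each of the 3 groups, ATAC-seq compared control with Runx1KO cells, and ChIP-seq mapped Runx1 and Runx2. Both knockouts were measured against the same 3 control libraries, so the comparisons are not independent. How many clones were sequenced is not given in the sources used here, and clone and genotype cannot be told apart. The labels also give a different RNA extraction text for the ZebDKO libraries, and that difference and the genotype cannot be told apart either. The cells of each group were cultured in triplicate on plates, so p-values measure the spread between such cultures and not between clones.

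Runx1 is a transcription factor of the Runt domain family that can activate or repress its targets, and it is best known from blood formation. Zeb1 and Zeb2 are zinc finger repressors that bind E-boxes, keep epithelial genes silent and mark mesenchymal cells. Chemokines are small secreted proteins that attract leukocytes, and kidney mesenchymal and epithelial cells make them under inflammatory signals through the transcription factor NF-kB, which is held in the cytoplasm by inhibitor proteins of the IkB family.

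The targeted genes were read first. Zeb2 measured 5.5, 4.9 and 5.2 TPM in the control libraries, 0.2 in each of the Runx1KO libraries, and 1.7, 1.8 and 1.6 TPM in the ZebDKO libraries. Zeb1 measured 15.1, 14.2 and 15.6 TPM in control, 0.1, 0.2 and 0.2 TPM in Runx1KO, and 16.8, 16.6 and 14.8 TPM in ZebDKO libraries. Zeb1 and Zeb2 RNA was therefore nearly gone in Runx1KO cells, whereas Zeb1 RNA overlapped the control range in ZebDKO cells. Runx1 RNA was 17.4 ± 1.61 TPM in control, 29.6 ± 0.987 TPM in Runx1KO and 10.1 ± 0.608 TPM in ZebDKO cells (SD, n = 3). A TPM value over the whole gene cannot show the loss of 1 exon, so for Runx1 and Zeb1 these levels neither support nor contradict the labels.

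Libraries of one group correlated at r = 0.994 to 0.996 over 12697 genes. TPM keeps no read number, so the depth behind each value is unknown. Between 15601 and 15670 genes were above 0 in the control libraries, 15699 to 15717 in the Runx1KO libraries and 16209 to 16685 in the ZebDKO libraries. For background, limma tested each knockout against control over all genes that reached 1 TPM in 3 or more of the 6 libraries, and called a gene at over 2-fold with an adjusted p under 0.05. It called 7.91% of 13067 genes higher and 5.1% lower in Runx1KO cells, and 7.5% of 12974 genes higher and 7.28% lower in ZebDKO cells. All 15 members of the first direction passed the filter and were called in both comparisons, while 37 of the 39 of the second passed it in both and were called, counts that follow from how members were chosen. The median difference over the 12697 genes tested in both was -0.07 in Runx1KO and -0.20 in ZebDKO cells on the log2 scale. Median-ratio scaling of the libraries shifted the ZebDKO median by 0.19, and with it the called genes went from 50.8% higher to 64.1% higher in that comparison.

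**Figure D1:**
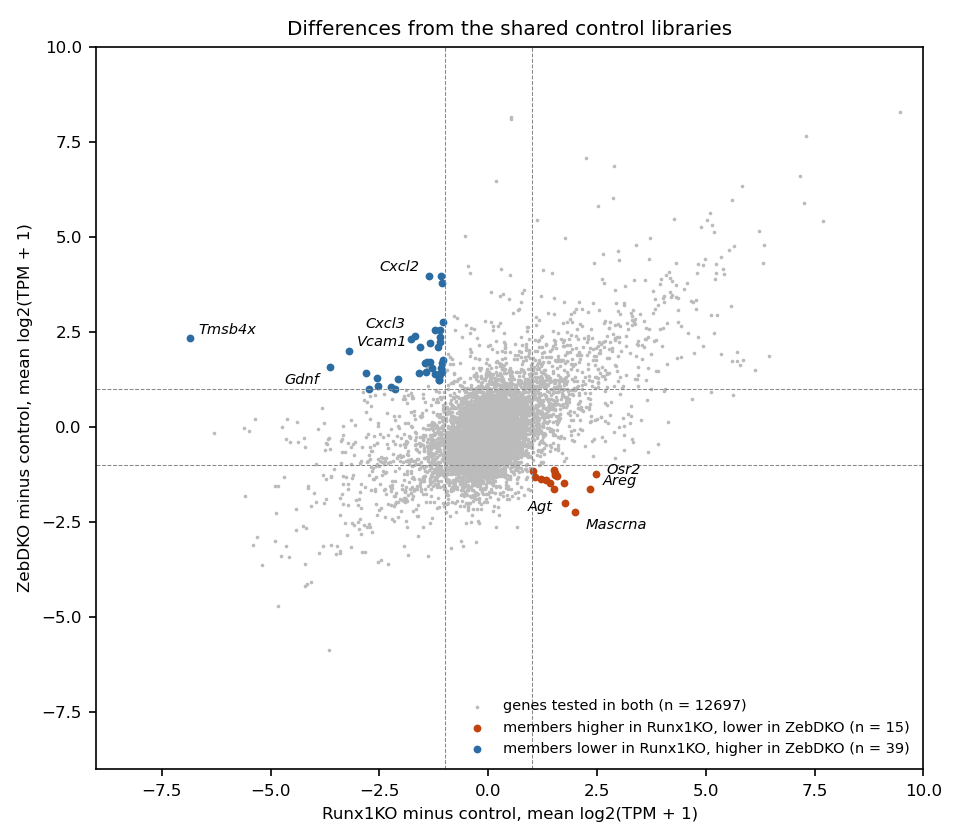
Difference from control in Runx1KO cells (x axis) against that in ZebDKO cells (y axis), both in mean log2(TPM + 1), for the 12697 genes tested in both comparisons (grey) and the members (colours); dashed lines mark a difference of 1. The 15 members higher in Runx1KO lie at the lower right and the 39 members higher in ZebDKO at the upper left, with Tmsb4x farthest left at -6.85.

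The 39 genes that were lower in Runx1KO and higher in ZebDKO cells held a block of secreted immune signals. They included 6 chemokine ligands, Cxcl1, Cxcl2, Cxcl3, Cxcl10, Cxcl14 and Ccl20, the macrophage growth factor Csf1, the leukocyte adhesion receptor Vcam1, the NF-kB inhibitor Nfkbie (IkB epsilon) and the interferon-regulated transcription factor Irf1. Their median difference was -1.34 in Runx1KO and 1.68 in ZebDKO cells, against the all-gene medians given above. The ZebDKO difference was the larger one for 28 of the 39, and 23 of the 39 averaged under 1 TPM in Runx1KO cells. Cxcl2, Cxcl3, Vcam1 and Nfkbie are among the 12 members with the largest smaller difference, and the other chemokines and Csf1 and Neurl3 are named after their values were seen because of their shared roles.

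**Figure D2:**
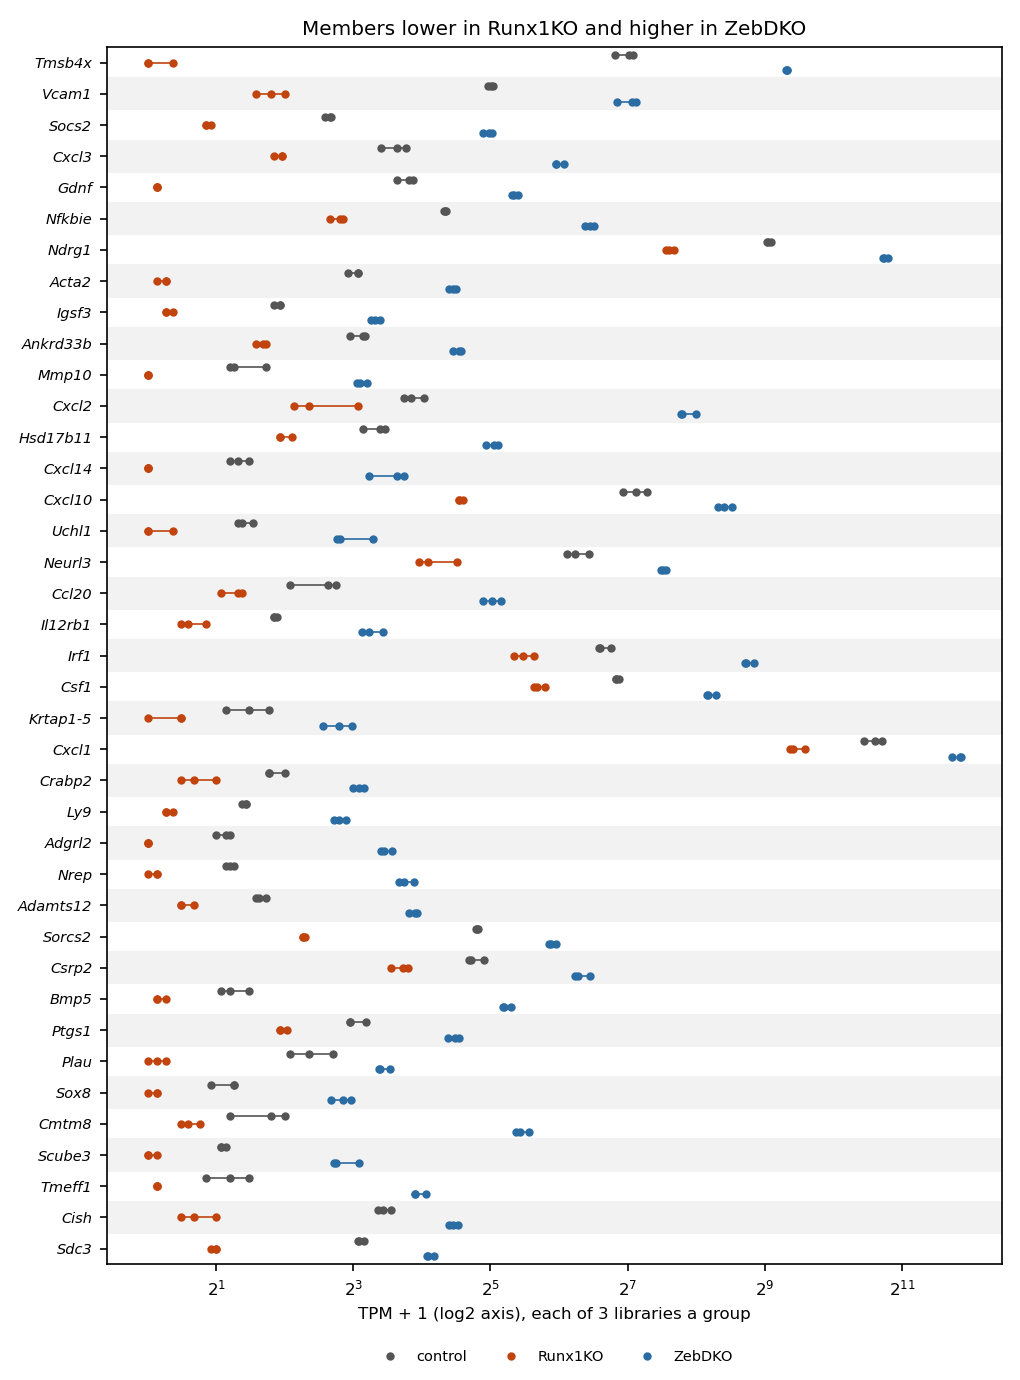
Level of each of the 39 members lower in Runx1KO and higher in ZebDKO cells (rows, ordered by the smaller of the 2 differences), as TPM + 1 on a log2 axis, with 1 point per library and a line over the range of each group. By the rule, in every row the Runx1KO points lie left of the control points and the ZebDKO points right of them. Control levels ran from Scube3 at 1.1 to 1.2 TPM to Cxcl1 at 1388.6 TPM and above.

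Cxcl1, a neutrophil attractant and the most abundant member, measured 1562.2, 1388.6 and 1673.0 TPM in control, 680.1, 656.7 and 767.1 TPM in Runx1KO, and 3728.9, 3692.0 and 3404.7 TPM in ZebDKO libraries. Cxcl2, which acts on the same receptor, measured 13.3, 12.4 and 15.4 TPM in control, 3.4, 4.1 and 7.4 TPM in Runx1KO, and 255.0, 218.1 and 221.3 TPM in ZebDKO libraries. Cxcl3, another ligand of that receptor, measured 11.5, 9.6 and 12.6 TPM in control, 2.9, 2.6 and 2.9 TPM in Runx1KO, and 66.0, 61.3 and 61.3 TPM in ZebDKO libraries. For Cxcl2 the third Runx1KO library stood highest of its group. The ZebDKO mean was 16.9 times the control mean for Cxcl2, 5.6 times for Cxcl3 and 2.34 times for Cxcl1. The control mean was in turn 2.76, 4.01 and 2.2 times the Runx1KO mean, respectively. These paralogs are alike in sequence, and how reads shared between them were counted is not given in the sources used here.

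Cxcl10, an interferon-induced attractant of T cells, measured 137.8, 121.2 and 154.0 TPM in control, 22.2, 22.3 and 23.3 TPM in Runx1KO, and 366.0, 336.7 and 316.5 TPM in ZebDKO libraries. Ccl20, the ligand of the receptor Ccr6, measured 5.2, 3.2 and 5.7 TPM in control, 1.6, 1.1 and 1.5 TPM in Runx1KO, and 34.7, 31.5 and 28.8 TPM in ZebDKO libraries. For Cxcl14 the levels were 1.3, 1.5 and 1.8 TPM in control, 0.0 in each of the Runx1KO libraries, and 11.5, 8.4 and 12.3 TPM in ZebDKO libraries. As for all members, the rule required that their groups do not overlap. For Cxcl10 the control mean was 6.09 times the Runx1KO mean, while Cxcl14 was listed at 0 in Runx1KO libraries.

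Nfkbie, the gene of an inhibitor that is itself induced by NF-kB, measured 19.3, 19.0 and 19.4 TPM in control, 6.2, 6.0 and 5.3 TPM in Runx1KO, and 89.7, 86.8 and 82.2 TPM in ZebDKO libraries. Vcam1 measured 31.1, 30.1 and 31.8 TPM in control, 3.0, 2.0 and 2.5 TPM in Runx1KO, and 138.1, 132.6 and 114.2 TPM in ZebDKO libraries. Irf1 measured 96.2, 95 and 106.8 TPM in control, 43.6, 39.6 and 48.5 TPM in Runx1KO, and 455.9, 422.1 and 418.2 TPM in ZebDKO libraries. Of these 3, Vcam1 had the widest span, with control 12.4 times Runx1KO and ZebDKO 4.14 times control. Csf1, which supports macrophages, measured 112.7, 112.5 and 116.7 TPM in control, 50, 48.8 and 54.8 TPM in Runx1KO, and 311.3, 286.7 and 284.5 TPM in ZebDKO libraries. Neurl3, which encodes a ubiquitin ligase, measured 73.9, 68.4 and 85.5 TPM in control, 16.1, 14.5 and 21.8 TPM in Runx1KO, and 188.0, 177.8 and 182.9 TPM in ZebDKO libraries.

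Other chemokine and NF-kB genes differed in how far they followed the members, as lists drawn up after the members were seen showed, and these lists carry no test. Of 39 chemokine ligands with symbols starting Cxcl, Ccl, Cx3cl or Xcl, 14 were tested in both comparisons, 6 of them members chosen by these same differences. Chemokine genes with other symbols were not in the list, such as Ppbp, which is given below and was called in neither comparison. The medians over the 14, which the members partly set, were -1.003 in Runx1KO and 1.43 in ZebDKO cells. Limma called 7 of the 14 lower in Runx1KO and 9 higher in ZebDKO cells, against 5.1% and 7.5% of all genes tested. Both counts include the 6 members, whose calls follow from the rule. Outside the members, only Cxcl5 was called lower in Runx1KO, and Ccl2, Cx3cl1 and Cxcl16 were called higher in ZebDKO cells. Cxcl5 and Ccl7 were called lower in ZebDKO cells. Ccl2, a monocyte attractant, measured 256.0, 231.5 and 289.8 TPM in control, 261.1, 243.3 and 306.1 TPM in Runx1KO, and 841.2, 745.7 and 707.4 TPM in ZebDKO libraries, so that its Runx1KO and control ranges overlapped. Cx3cl1, a membrane-bound chemokine, measured 89.1, 82.0 and 81.4 TPM in control, 98.8, 98.8 and 97.7 TPM in Runx1KO, and 554.8, 523.7 and 516.7 TPM in ZebDKO libraries. Cxcl5 was low in both knockouts, with 19.3, 16.9 and 23.7 TPM in control, 0.0, 0.1 and 0.3 TPM in Runx1KO, and 0.7 TPM in each of the ZebDKO libraries. Cxcl16 was in contrast above control in both.

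Among 12 NF-kB genes (subunits, inhibitors and the kinase gene Ikbkb), all tested, Nfkbie was the 1 member, and the medians were -0.20 in Runx1KO and 0.99 in ZebDKO cells. Limma called 2 of the 12 lower in Runx1KO and 6 higher in ZebDKO cells, against 5.1% and 7.5% of all genes tested. Nfkbia, the IkB alpha gene, measured 221.2, 203.2 and 234.9 TPM in control, 261.9, 244.8 and 284.7 TPM in Runx1KO, and 1500.6, 1485.4 and 1451.5 TPM in ZebDKO libraries. Tnfaip3, which encodes the inhibitor A20, measured 57.1, 54.4 and 63.4 TPM in control, 52.9, 54.8 and 59.6 TPM in Runx1KO, and 428.6, 416.6 and 379.0 TPM in ZebDKO libraries. Both inhibitors were far above control in ZebDKO cells, while in Runx1KO cells Nfkbia lay above and Tnfaip3 overlapped the control range. Some other genes of the list differed from control in the members' directions by less than 1 on the Runx1KO side, and some did not. The differences in Runx1KO and ZebDKO cells were -0.49 and 0.49 for Nfkb1 and -0.32 and 0.78 for Nfkb2, which encode precursor subunits. They were -0.32 and 1.35 for the subunit gene Relb, and -0.40 and 1.97 for Nfkbiz, an atypical inhibitor gene. Rela differed by -0.09 and 0.43. Rel and Nfkbib were not lower in Runx1KO cells, at 0.03 and 0.01, and stood at 0.48 and 1.20 in ZebDKO cells. Ikbkb was above control in both knockouts, at 0.40 and 0.28. Bcl3, the other NF-kB gene lower in Runx1KO, measured 93.8, 87.2 and 96.8 TPM in control, 18.4, 18.5 and 21.3 TPM in Runx1KO, and 156.6, 147.0 and 162.5 TPM in ZebDKO libraries, a ZebDKO difference of 0.74 that fell short of the limit.

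Several of these promoters held the letters of a kappaB site, the sequence that NF-kB dimers bind. Promoters, from 250 bases before to 50 after the start of the gene, were taken from RefSeq (GRCm38.p6) and were at hand for 42 of the 54 members. The kappaB letters, searched on both strands by their consensus, were found in 9 of 29 promoters of members higher in ZebDKO (31.0%, exact 95% interval 15.3 to 50.8%) and in 0 of 13 promoters of members higher in Runx1KO (interval 0 to 24.7%). They were in 4.35% of all 27025 promoters and in 5.01% of 9593 promoters of genes tested in both comparisons. The intervals cover counting error only, the motif was chosen after the members were seen, and Cxcl1, Cxcl2 and Cxcl3 are copies of one ancestral gene. Of the 9 genes, 5 were chemokines (Cxcl1, Cxcl2, Cxcl3, Cxcl10 and Ccl20) and the others included Nfkbie, Csf1 and Neurl3. Most of the 29 promoters held no match. The upstream bases of these named genes around the match are printed 5′ to 3′ on the strand of the gene, with the match in capitals, to show the matches counted above. Each was placed in mm9, the build of the deposited files, by an exact and unique match.
Cxcl1, chr5:91320175-91320235, plus strand: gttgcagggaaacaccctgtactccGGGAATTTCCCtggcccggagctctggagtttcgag
Cxcl2, chr5:91332803-91332863, plus strand: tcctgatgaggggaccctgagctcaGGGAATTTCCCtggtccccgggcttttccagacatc
Cxcl3, chr5:91215029-91215089, plus strand: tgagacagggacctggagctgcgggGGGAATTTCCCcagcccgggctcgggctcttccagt
Cxcl10, chr5:92777984-92778099, minus strand: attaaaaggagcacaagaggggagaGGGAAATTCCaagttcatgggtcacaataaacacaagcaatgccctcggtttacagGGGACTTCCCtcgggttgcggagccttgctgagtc
Ccl20, chr1:83113236-83113295, plus strand: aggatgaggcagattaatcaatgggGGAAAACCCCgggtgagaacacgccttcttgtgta
Nfkbie, chr17:45692518-45692577, plus strand: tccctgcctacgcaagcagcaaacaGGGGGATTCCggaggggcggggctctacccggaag
Csf1, chr3:107563507-107563566, minus strand: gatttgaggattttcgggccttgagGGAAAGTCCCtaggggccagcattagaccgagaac
Neurl3, chr1:36330346-36330405, minus strand: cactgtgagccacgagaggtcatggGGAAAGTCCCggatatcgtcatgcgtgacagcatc
The Cxcl1, Cxcl2 and Cxcl3 windows carried the same 11 letters, counted as 2 overlapping matches, and Cxcl10 carried 2 separate matches.

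The Runx letters TGTGGT, read on both strands, were in 6 of the 29 promoters of members higher in ZebDKO (20.7%, interval 7.99 to 39.7%) and in 3 of 13 of those higher in Runx1KO (23.1%, interval 5.04 to 53.8%), against 16.9% of all promoters and 12.05% of promoters of genes tested in both comparisons. The Zeb E-box letters CAGGTA were in 0 of the 29 (interval 0 to 11.9%) and 1 of the 13, against 11.8% of all promoters and 8.15% of those of tested genes. The related letters CAGGTG were in 4 of the 29 (13.8%) and 2 of the 13 (15.4%), against 20.03% of all and 16.95% of tested genes. The exact 95% intervals for CAGGTG were 3.89 to 31.7% and 1.92 to 45.5%. The AP-1 letters TGANTCA were in 3 of the 29 (10.3%) and 1 of the 13, against 7.93% of all and 4.77% of tested genes, and the STAT letters TTCNNNGAA were in 4 of the 29 (13.8%) and 2 of the 13, against 8.47% and 7.03%. The exact 95% intervals for the 29 were 2.19 to 27.4% for AP-1 and 3.89 to 31.7% for STAT. A match is a string of letters and not a bound site.

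The genome placed 4 members in one block of chromosome 5. The starts of Cxcl3 and Cxcl2 lay 105 kb before and 12.6 kb after that of Cxcl1 (chr5:91320267 on mm9), and the start of Areg lay 248 kb after it. Areg (amphiregulin, a ligand of the EGF receptor) moved opposite to its chemokine neighbours, at 31.8, 35.2 and 25.3 TPM in control, 178.9, 143.2 and 156.0 TPM in Runx1KO, and 9.4, 9.5 and 8.4 TPM in ZebDKO libraries. No other pair of members had starts within 1000 kb of each other. Genes between and beside them did not all follow. Ppbp, another chemokine gene 122.7 kb before Cxcl1, measured 71.7, 62.3 and 60.6 TPM in control, 46.1, 45.7 and 43.8 TPM in Runx1KO, and 66.5, 70.8 and 64.2 TPM in ZebDKO libraries, and was called in neither comparison. Mthfd2l, a folate enzyme gene that lies between Cxcl2 and Areg, differed by -0.21 in Runx1KO and -0.42 in ZebDKO cells and was also called in neither. Rassf6, 250.8 kb before Cxcl1, was called higher in both knockouts, at 4.93 ± 0.0807 (SE) in Runx1KO and 2.13 ± 0.115 in ZebDKO cells (limma, adjusted p = 1.66e-08 and 2.77e-06).

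**Figure D3:**
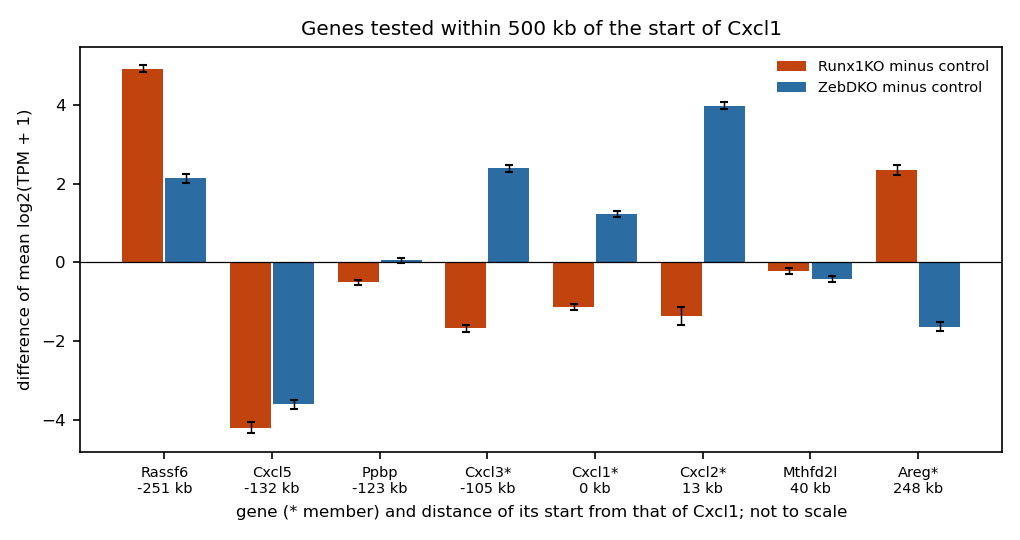
Difference from control in Runx1KO (orange) and ZebDKO (blue) cells, in mean log2(TPM + 1), for the 8 genes tested in both comparisons whose start lies within 500 kb of that of Cxcl1, ordered by position; error bars are the standard error from limma and a star marks a member. Cxcl3, Cxcl1 and Cxcl2 point down in Runx1KO and up in ZebDKO, Areg points the other way, and Rassf6 and Cxcl5 move alike in both.

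Feedback inhibitors of cytokine receptors formed a smaller group. Socs2, which dampens growth hormone and cytokine signalling, measured 5.4, 5.3 and 5.0 TPM in control, 0.9, 0.8 and 0.8 TPM in Runx1KO, and 30.4, 31.6 and 28.7 TPM in ZebDKO libraries. Cish, a STAT5 target of the same family, measured 9.3, 9.8 and 10.7 TPM in control, 0.6, 1.0 and 0.4 TPM in Runx1KO, and 22.1, 20 and 21.0 TPM in ZebDKO libraries. Cish lay just inside the limit in ZebDKO cells, at 1.01. They were 2 of 8 genes of this family tested, a list drawn up after the members were seen, with medians of -0.46 in Runx1KO and -0.28 in ZebDKO cells. Socs3 went the other way in ZebDKO cells, at 201.2, 228.0 and 228.1 TPM in control, 181.5, 180.3 and 162.8 TPM in Runx1KO, and 59.8, 57.3 and 61.7 TPM in ZebDKO libraries. Socs4, Socs6 and Socs7 were above control in Runx1KO cells, at 0.37, 0.42 and 0.42. They were below it in ZebDKO cells, at -1.12, -0.24 and -0.32. Socs5 was below control in both knockouts, at -0.60 and -0.51. Socs1 moved in the members' directions, at -1.94 and 0.82.

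Cytoskeletal and mesenchymal members included the largest change in Runx1KO cells. Tmsb4x, an X-linked gene of an actin-binding peptide, measured 111.8, 134.4 and 128.7 TPM in control, 0.3, 0.0 and 0.0 TPM in Runx1KO, and 641.9, 642.0 and 635.9 TPM in ZebDKO libraries. Its RNA was thus almost absent from Runx1KO cells and 5.12 times the control mean in ZebDKO cells. Processed copies of this gene exist elsewhere in the genome, and how reads shared with them were counted is not given in the sources used here. Acta2, smooth muscle actin, measured 7.4, 6.6 and 7.4 TPM in control, 0.2, 0.2 and 0.1 TPM in Runx1KO, and 20, 20.9 and 21.7 TPM in ZebDKO libraries. Csrp2, a muscle LIM protein gene, followed at 25.4, 24.7 and 29.1 TPM in control, 10.7, 12.2 and 12.9 TPM in Runx1KO, and 76.5, 74.5 and 86.9 TPM in ZebDKO libraries. Of 7 smooth muscle contractile genes tested, again a list drawn up afterwards, these were the 2 members. The medians over all 7, these members included, were -0.93 in Runx1KO and 1.002 in ZebDKO cells. The other genes of the list did not all follow. Smtn was above control in both knockouts, at 0.698 in Runx1KO and 1.88 in ZebDKO cells. Cnn1 was below it in both, at -0.53 and -0.08. Tagln stood at -0.18 and 0.79, and its Runx1KO and control ranges overlapped. Csrp1, at -1.01 and 0.41, and Myl9, at -0.93 and 1.002, moved in the members' directions.

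Secreted growth and matrix factors of the kidney were also among the 39. Gdnf, the mesenchymal signal that draws out the ureteric bud, measured 13.1, 11.4 and 13.6 TPM in control, 0.1 in each of the Runx1KO libraries, and 38.6, 41.4 and 39.4 TPM in ZebDKO libraries. Bmp5, a bone morphogenetic protein gene, measured 1.1, 1.3 and 1.8 TPM in control, 0.1, 0.2 and 0.1 TPM in Runx1KO, and 35.5, 38.3 and 35.8 TPM in ZebDKO libraries. Mmp10, a matrix metalloproteinase gene, measured 1.4, 1.3 and 2.3 TPM in control, 0.0 in each of the Runx1KO libraries, and 8.2, 7.6 and 7.3 TPM in ZebDKO libraries. Gdnf was near 0 in Runx1KO cells, whereas Bmp5 started so low that its change lay mainly on the ZebDKO side, at 26.1 times control. Plau, the urokinase protease gene, measured 4.1, 3.2 and 5.5 TPM in control, 0.2, 0.0 and 0.1 TPM in Runx1KO, and 9.4, 9.5 and 10.6 TPM in ZebDKO libraries.

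The remaining members of the 12 with the largest smaller difference had less closely related roles. Ndrg1, a stress and differentiation gene, measured 526.4, 521.3 and 545.0 TPM in control, 193.7, 187.3 and 203.1 TPM in Runx1KO, and 1687.7, 1705.8 and 1770.9 TPM in ZebDKO libraries. Igsf3, which encodes an immunoglobulin superfamily protein, measured 2.6, 2.8 and 2.8 TPM in control, 0.2, 0.2 and 0.3 TPM in Runx1KO, and 8.6, 9.5 and 9.0 TPM in ZebDKO libraries. Ankrd33b, an ankyrin repeat gene, measured 7.8, 6.7 and 8.0 TPM in control, 2.2, 2.0 and 2.3 TPM in Runx1KO, and 22.4, 22.8 and 21.0 TPM in ZebDKO libraries. Ndrg1 was the member with the second highest level in ZebDKO cells after Cxcl1. Leaving Irf1 aside, the 26 members past those 12 differed from control by -2.73 to -1.04 in Runx1KO and by 1.01 to 3.98 in ZebDKO cells. They also included Sox8, a transcription factor gene of the developing kidney, Crabp2, a retinoic acid carrier gene, and Ptgs1, the cyclooxygenase 1 gene.

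The 15 genes that were higher in Runx1KO and lower in ZebDKO cells were of moderate level, with control means from 2.33 to 42.1 TPM, and shared no single role. Their median difference was 1.53 in Runx1KO and -1.36 in ZebDKO cells. Areg, described above, was 5.18 times control in Runx1KO cells, and control was 3.38 times ZebDKO. Osr2, a zinc finger transcription factor gene of the kidney mesenchyme, measured 10.4, 10.4 and 11.2 TPM in control, 64.0, 66.2 and 62.5 TPM in Runx1KO, and 3.4, 5.3 and 3.4 TPM in ZebDKO libraries. Agt, the angiotensinogen gene, measured 4.3, 4.2 and 6.3 TPM in control, 22.5, 12.9 and 23.5 TPM in Runx1KO, and 0.4, 0.6 and 0.4 TPM in ZebDKO libraries. Osr2 stood farthest above control of the 15 in Runx1KO cells, at 2.48 on the log2 scale, and Agt was under 1 TPM in each ZebDKO library.

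**Figure D4:**
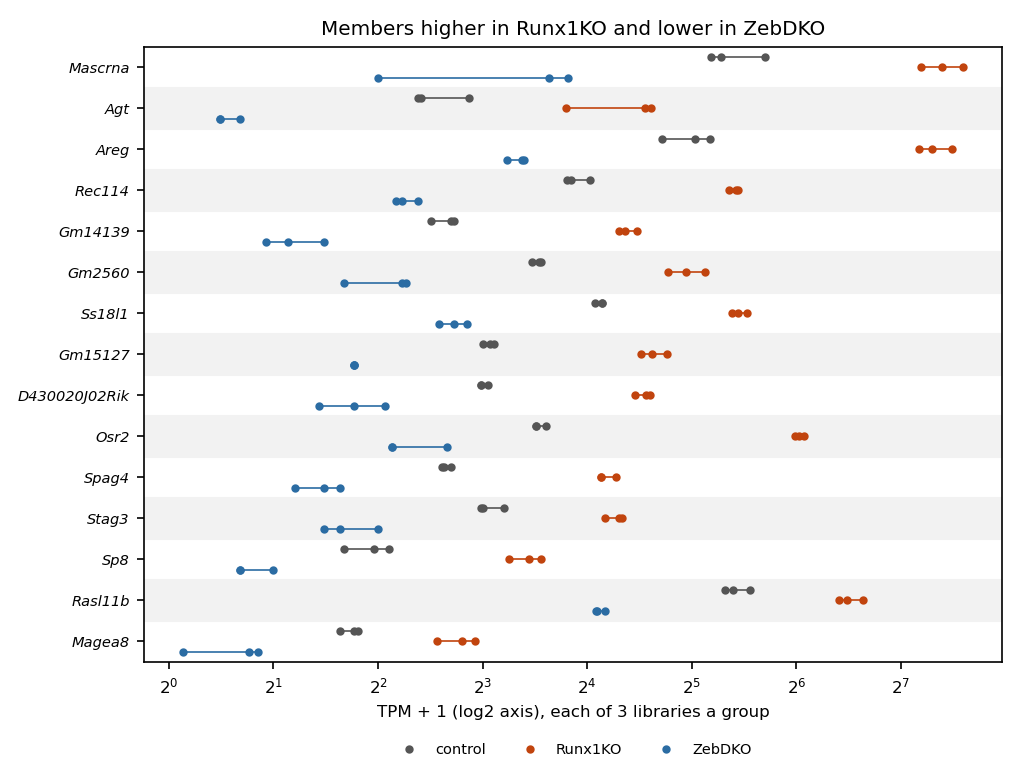
Level of each of the 15 members higher in Runx1KO and lower in ZebDKO cells (rows, ordered by the smaller of the 2 differences), as TPM + 1 on a log2 axis, with 1 point per library and a line over the range of each group. By the rule, the ZebDKO points lie left of the control points and the Runx1KO points right of them in every row. Mascrna shows the widest ZebDKO group, from 3.0 to 13.1 TPM.

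Areg was the 1 member among 5 EGF receptor ligand genes tested, a list drawn up after the members were seen and given no test, with medians of 2.09 in Runx1KO and -0.23 in ZebDKO cells. Btc, the betacellulin gene, measured 1.1, 1.1 and 1.0 TPM in control, 13.6, 11.4 and 12 TPM in Runx1KO, and 0.8, 0.5 and 0.5 TPM in ZebDKO libraries. Hbegf measured 102.2, 113.9 and 104.6 TPM in control, 368.5, 368.4 and 373.8 TPM in Runx1KO, and 241.3, 233.1 and 235.8 TPM in ZebDKO libraries. Hbegf and Tgfa were above control in both knockouts, while Btc was above it in Runx1KO and slightly below it in ZebDKO cells, with a difference of -0.37.

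Germline genes appeared among the 15. Stag3, a cohesin subunit gene of meiosis, measured 6.9, 7.0 and 8.2 TPM in control, 18.7, 17.0 and 19.1 TPM in Runx1KO, and 1.8, 2.1 and 3.0 TPM in ZebDKO libraries. Rec114, needed for meiotic DNA breaks, measured 13.4, 13.0 and 15.3 TPM in control, 41.9, 42.4 and 40.1 TPM in Runx1KO, and 3.7, 3.5 and 4.2 TPM in ZebDKO libraries. Both were 2 of 4 meiotic genes tested, from a list of 12 drawn up afterwards. The other 8, among them Rec8, Smc1b, Mei4, Dmc1, Spo11 and Hormad1, were below the filter, at 0.2 TPM or less in every library. Sycp1 differed by 0.25 in Runx1KO and -0.86 in ZebDKO cells and was called in neither. Sycp3, of the meiotic chromosome axis, was below control in ZebDKO but overlapped it in Runx1KO libraries. It measured 8.5, 6.1 and 5.7 TPM in control, 6.1, 8.2 and 9.0 TPM in Runx1KO, and 1.8, 2.0 and 2.5 TPM in ZebDKO libraries. Spag4, a nuclear envelope gene best known from testis, measured 5.1, 5.5 and 5.2 TPM in control, 16.5, 18.4 and 16.5 TPM in Runx1KO, and 2.1, 1.8 and 1.3 TPM in ZebDKO libraries.

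The level of Rec114 depended on the table. In a second deposited table of the same control and Runx1KO libraries, quantified on more genes, Rec114 averaged 0.46 TPM in control and 17.4 TPM in Runx1KO libraries. Gm15127, a predicted X-linked gene, averaged 0.0 and 17.6 TPM there, against 7.6, 7.4 and 7.0 TPM in control, 21.9, 26.1 and 23.6 TPM in Runx1KO, and 2.4 TPM in each ZebDKO library in the first table. The direction was the same in both tables, while the control levels were not. Of the members present in the second table, which does not list Mascrna, 14 of 14 and 39 of 39 kept the sign of the Runx1KO difference, and 13 and 25 of these still passed 1. Since it holds the same libraries, it is no independent measurement.

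Noncoding and little studied transcripts made up much of the rest of this direction. Mascrna, a small RNA cut from the end of the long noncoding RNA Malat1, measured 35.4, 37.8 and 51.1 TPM in control, 192.3, 145.7 and 167.6 TPM in Runx1KO, and 11.4, 13.1 and 3.0 TPM in ZebDKO libraries. Malat1 itself ranged from 30.6 to 37.3 TPM in control, 94.9 to 126.0 TPM in Runx1KO and 20.2 to 28.6 TPM in ZebDKO libraries, in the same order, and reads of the overlapping transcripts cannot be told apart. Gm2560, annotated by RefSeq as a long noncoding RNA, measured 10.8, 10.6 and 10.1 TPM in control, 29.8, 26.4 and 34.0 TPM in Runx1KO, and 3.7, 3.8 and 2.2 TPM in ZebDKO libraries. Both kept the groups apart, as the rule requires. Gm14139 measured 5.6, 5.5 and 4.7 TPM in control, 19.5, 21.2 and 18.7 TPM in Runx1KO, and 0.9, 1.2 and 1.8 TPM in ZebDKO libraries. D430020J02Rik measured 6.9, 6.9 and 7.3 TPM in control, 22.6, 23.2 and 20.9 TPM in Runx1KO, and 3.2, 2.4 and 1.7 TPM in ZebDKO libraries. Ss18l1, which encodes a subunit of a neuronal chromatin remodelling complex, measured 15.9, 16.7 and 16.7 TPM in control, 42.4, 40.7 and 45.1 TPM in Runx1KO, and 5.0, 6.2 and 5.6 TPM in ZebDKO libraries. All 3 showed the same order of groups without overlap, again by the rule. The last 3 of the 15 lay nearest the limit. Sp8, a zinc finger transcription factor gene, measured 2.2, 2.9 and 3.3 TPM in control, 9.9, 8.5 and 10.8 TPM in Runx1KO, and 0.6, 0.6 and 1.0 TPM in ZebDKO libraries. Rasl11b, which encodes a small GTPase, measured 39.0, 41.1 and 46.1 TPM in control, 88.3, 83.8 and 98.4 TPM in Runx1KO, and 16.1, 17.0 and 16.0 TPM in ZebDKO libraries. Magea8, an X-linked gene of a family with similar copies, measured 2.4, 2.5 and 2.1 TPM in control, 4.9, 6.0 and 6.6 TPM in Runx1KO, and 0.1, 0.8 and 0.7 TPM in ZebDKO libraries.

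The limit of 1 left genes just inside and just outside it. The 3 members nearest the limit in the first direction were Magea8, Rasl11b and Sp8, with a smaller difference of 1.03, 1.08 and 1.13, and the nearest genes outside were Gm15091, Eml5 and St6galnac2, at 0.96 for each when rounded. In the second direction Sdc3, Cish and Tmeff1 lay just inside, at 1.01, 1.01 and 1.04, and Tent5c, Tnfrsf1b and Cd1d1 just outside, at 0.98, 0.96 and 0.95. Tnfrsf1b, a TNF receptor gene, measured 4.9, 5.0 and 4.4 TPM in control, 0.6, 0.6 and 0.5 TPM in Runx1KO, and 11.3, 9.3 and 10.2 TPM in ZebDKO libraries. Levels thus ran on across the limit without a gap.

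Lists of genes written from general knowledge gave the setting, and the counts cover genes tested in both comparisons or, for calls, in each. For comparison with the calls below, limma called 7.91% of all genes tested higher and 5.1% lower in Runx1KO cells. In ZebDKO cells it called 7.5% higher and 7.28% lower. The counts of the lists carry no test. Of 19 mesenchymal genes tested, Acta2 was the 1 member, and limma called 7 lower and 0 higher in Runx1KO cells, and 4 lower and 1 higher in ZebDKO cells. Fn1, fibronectin, was called lower in Runx1KO cells (-1.50 ± 0.0521 SE, adjusted p = 4.48e-07) and stood at 0.87 ± 0.067 in ZebDKO cells, below the fold limit. S100a4 and Twist2, of higher level than Fn1, were below control in both knockouts. In Runx1KO and ZebDKO cells S100a4 differed by -1.88 and -2.47, and Twist2 by -1.38 and -0.68. The medians over the 19 were also below 0 in both, at -0.77 and -0.42. Epithelial genes held no member. Of 32 listed, 16 of the 20 tested were called higher in Runx1KO and 15 of the 19 tested in ZebDKO cells. Several, such as Cldn4, Krt18 and Itgb4, were under 1 TPM in control and passed the filter only by rising in a knockout. These counts are therefore partly set by the filter. Cdh1, Dsp and Ovol2 stayed under 1 TPM in every library and were not tested. Krt8, an epithelial keratin, differed from control by 9.46 ± 0.178 in Runx1KO and 8.30 ± 0.176 in ZebDKO cells (adjusted p = 2.69e-08 and 4.46e-08).

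Interferon and antigen presentation genes held 1 member, Irf1. Of 23 tested in Runx1KO cells 8 were called higher and 1 lower, and of 22 tested in ZebDKO cells 8 were called higher and 0 lower. H2-K1, a class I histocompatibility gene, was called higher in both, by 1.71 ± 0.0588 and 2.74 ± 0.0574 (adjusted p = 4.2e-07 and 4.41e-08). Irf1 was thus opposed to H2-K1 in Runx1KO cells, where Irf1 stood at -1.16. Nephron progenitor genes held Gdnf, with 2 called higher and 4 lower of 14 in Runx1KO, and 3 higher and 3 lower of 13 in ZebDKO cells. Growth factors and their receptors held Areg, with 4 higher and 6 lower of 21 in Runx1KO, and 5 higher and 5 lower of 21 in ZebDKO cells.

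The other lists held no member. TGF-beta and BMP genes had 2 called higher and 5 lower of 24 in each comparison. Axon guidance genes had 3 higher and 5 lower of 24 in Runx1KO, and 3 higher and 4 lower of 24 in ZebDKO cells. Renal stroma genes had 0 higher and 2 lower of 6 in Runx1KO, and 0 higher and 1 lower of 6 in ZebDKO cells. Of 12 markers of blood and endothelium, which would show other cell types, 3 passed the filter, with 1 called higher and 1 lower in Runx1KO and 1 higher in ZebDKO cells.

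Peak lists showed which members lay near chromatin that changed in Runx1KO cells. No chromatin data of ZebDKO cells were analysed here. Each gene was given a domain of 5 kb before and 1 kb after its start, extended to the next gene by up to 1000 kb, and positions were found for 13 and 39 members. Of the 39 members lower in Runx1KO, 24 (61.5%, exact 95% interval 44.6 to 76.6%) had a region in their domain that closed in Runx1KO cells, against 35.2% of the 11915 genes tested in both comparisons. Of the 13 members higher in Runx1KO, 4 (30.8%, interval 9.09 to 61.4%) had one. Within a fixed 20 kb of the start the shares were 53.8% and 23.1%, against 17.1%. Members lower in Runx1KO had longer domains, with a median of 117 kb against 81.5 kb over all genes tested. The authors reported that regions which closed were enriched near genes with reduced expression in Runx1KO cells. The members were not compared here with other genes lower in Runx1KO. The regions were compared over the same cell lines as the RNA, and the lists hold no replicates, so the shares are a description and carry no test.

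**Figure D5:**
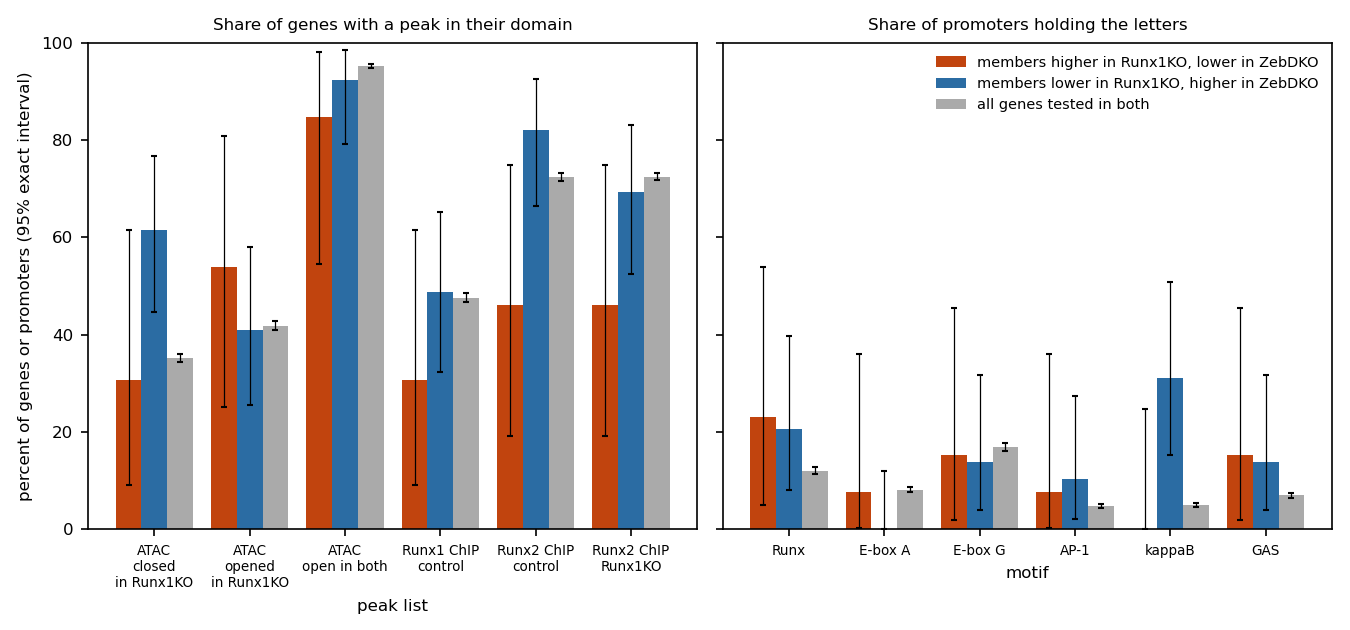
Left, percent of genes with at least 1 peak of each list in their domain; right, percent of promoters that hold each motif (E-box A is CAGGTA, E-box G is CAGGTG, GAS is the STAT letters TTCNNNGAA); bars stand for members higher in Runx1KO (orange), members lower in Runx1KO (blue) and all genes tested in both (grey), with exact 95% intervals. The blue bar stands above the grey bar for regions that closed in Runx1KO (61.5% against 35.2%) and for kappaB (31.0% against 5.01%).

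Regions that opened in Runx1KO cells lay in the domains of 7 of 13 members higher there (53.8%, interval 25.1 to 80.8%) and 16 of 39 members lower there (41.0%, interval 25.6 to 57.9%), against 41.9% of all genes tested. Osr2 had 3 opened and 0 closed regions in its domain, the nearest of them 11.1 kb before its start, and Sp8 had 4 opened and 0 closed. Regions open in both cell lines lay near 84.6% and 92.3% of members and 95.1% of all genes tested.

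Runx1 peaks of control cells lay in the domains of 48.7% of the 39 (interval 32.4 to 65.2%) and 30.8% of the 13 (interval 9.09 to 61.4%), against 47.6% of all genes tested. Runx2 peaks of control cells lay in the domains of 82.1% of the 39 and 46.2% of the 13, against 72.4%. In Runx1KO cells Runx2 peaks lay in the domains of 69.2% and 46.2%, against 72.5%. A Runx1 peak inside a region that closed was found for 11 of the 39 members (Adamts12, Ccl20, Csf1, Cxcl1, Gdnf, Igsf3, Ndrg1, Nrep, Plau, Sdc3 and Socs2) and for 1 of the 13 (Rasl11b). These shares were 28.2% (interval 15.0 to 44.9%) and 7.69% (interval 0.195 to 36.0%), against 9.12% of all genes tested. They were counted in the domains only and not at a fixed distance. The domains of the 39 had a median of 117 kb, against 81.5 kb over all genes tested.

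Gdnf had 8 closed and 0 opened regions in its domain, the nearest 0.329 kb before its start, and Csf1 had 7 closed and 0 opened. Nfkbie had 2 closed regions in its introns, and Runx1 was bound at its promoter, 0.069 kb before the start (chr17:45692524-45692668, enrichment 4.05 fold over background), where the kappaB letters printed above also lie. That promoter peak lay in a region open in both cell lines, and Runx2 peaks of control and of Runx1KO cells overlapped it. Vcam1 had 3 closed and 0 opened regions. Acta2, Mmp10 and Cxcl2 had none of either kind. The Cxcl1 domain held 4 closed regions between 9.407 and 58.6 kb before its start and 1 opened region 11.6 kb before it.

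Runx1 peaks inside closed regions are printed for 3 members picked by name. Each holds the Runx letters TGTGGT (or ACCACA, the same site on the other strand). How many such peaks of the other members hold the letters was not counted. All are on the plus strand of mm9, with the match in capitals.
Cxcl1, 58.6 kb upstream, chr5:91261530-91261822, enrichment 5.05 fold: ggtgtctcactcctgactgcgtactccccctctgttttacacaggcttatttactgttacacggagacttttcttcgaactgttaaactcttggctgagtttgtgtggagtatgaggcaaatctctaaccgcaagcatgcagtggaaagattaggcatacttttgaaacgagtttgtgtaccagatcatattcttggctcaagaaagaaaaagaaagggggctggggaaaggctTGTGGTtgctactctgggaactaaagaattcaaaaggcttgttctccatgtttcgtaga
Ccl20, 3.43 kb downstream of the start, chr1:83116671-83116873, enrichment 3.79 fold: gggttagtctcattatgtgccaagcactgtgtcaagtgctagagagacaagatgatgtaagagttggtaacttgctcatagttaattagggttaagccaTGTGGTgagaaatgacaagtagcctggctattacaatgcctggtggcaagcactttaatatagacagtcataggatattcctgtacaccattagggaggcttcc
Gdnf, 52.0 kb downstream of the start, chr15:7812948-7813131, enrichment 4.38 fold: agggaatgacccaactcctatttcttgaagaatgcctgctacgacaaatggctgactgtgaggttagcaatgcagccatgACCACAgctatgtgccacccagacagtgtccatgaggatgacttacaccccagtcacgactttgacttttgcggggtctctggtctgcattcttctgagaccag
Each overlapped a Runx2 peak of control cells as well. The Ccl20 and Gdnf peaks lay below the median enrichment of all Runx1 peaks, 4.46 fold. The Cxcl1 domain also held Runx1 peaks of 9.88 fold, 15.1 kb before the start, and of 4.09 fold, 0.174 kb after it. Both of these lay in regions open in both cell lines. The Runx letters were in 33.1% of 9977 Runx1 peaks, in 54.5% of 8741 closed, 35.4% of 9427 opened and 38.5% of 37481 regions open in both, whose lengths differ.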

How the data were processed

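RNA-seq, ATAC-seq and ChIP-seq files of mK4 cells were used. The authors trimmed reads, aligned them to mm9 with STAR, removed duplicate reads, counted reads on RefSeq genes with featureCounts v1.6.2 and deposited TPM values (24953 genes, 9 libraries, 1 decimal). A second deposited TPM table (32790 genes, 6 libraries) held the same control and Runx1KO libraries. ATAC-seq lists split by the authors into closed, opened and unchanged regions were used for positions only, and the authors' own fold changes and p-values in them were not used. ChIP-seq peaks were called with MACS2 on the combined replicates, and the fold over background is the ratio deposited by the authors, while their scores and q-values were not used.

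Groups came from the labels. The members and gene lists were chosen with earlier results of these data known. Differences are on log2(TPM + 1), which understates changes of low genes. Limma 3.58.1 (R 4.3.3, trend, Benjamini-Hochberg) was fitted to each comparison over genes that reached 1 TPM in 3 or more of the 6 libraries, and was tested on simulated data. Named were, in each direction, the 12 members with the largest smaller difference, members in a list, the 3 genes on either side of the limit, the targeted genes, and up to 4 called genes of highest TPM per list. Others were named after their values were seen. The lists were epithelial, mesenchymal, nephron progenitor and early nephron, renal stroma, TGF-beta and BMP pathway, interferon response and antigen presentation, axon guidance, growth factors and their receptors, and blood and endothelium. Gene positions came from GENCODE vM1 on mm9, with older symbols where needed. Intervals are Clopper-Pearson at 95%. Python 3.11.15, pandas 2.3.3, numpy 2.4.6, scipy 1.17.1, pysam 0.24.0 and matplotlib 3.10.9 were used. Alternatives were other pseudocounts, scalings, limits, filters, peak distances, a replicate block and each library left out. The promoter sequence of 1 further gene is not reported here.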

Additional observations from a re-analysis of the deposited data

How the results depend on the processing

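With a pseudocount of 0.1 the rule gave 46 genes higher in Runx1KO and 91 higher in ZebDKO cells in place of 15 and 39, with a limit of 0.5 it gave 162 and 142, and with a limit of 1.5 it gave 4 and 6. With the Runx1KO side taken from the second TPM table it gave 15 and 26, of which 13 and 25 were members. With each library left out in turn the counts ran from 14 to 19 and from 36 to 42, and under the other alternatives run from 14 to 22 and from 37 to 49. Replicate numbers did not pair the samples (deviations of same-numbered libraries correlated at -0.034 to 0.034, and 3 of 9 were highest for their own number). With the replicate number as a block in limma, genes called in opposite directions came to 16 and 37, as without it, and called genes to 1709 in Runx1KO and 1923 in ZebDKO, against 1700 and 1917.

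For members higher in ZebDKO, the share with a nearby peak was 20.5% for opened regions, 71.8% for regions open in both, 28.2% for Runx1 and 64.1% for Runx2 of control cells (against 26.6, 94.3, 36.8 and 68.3% of all genes tested) when peaks lay within 20 kb of the start. Within 100 kb it was 76.9% for closed regions, 59.0% for opened regions, 66.7% for Runx1, and 84.6% for Runx2 of Runx1KO cells, against 56.3, 67.8, 73.5 and 91.2%. With only the ChIP-seq peaks at or above the median fold it was 25.6% for Runx1, 59.0% for Runx2 of control and 51.3% for Runx2 of Runx1KO cells, against 32.5, 52.8 and 51.1%. No difference of the 25 members named by the rule changed sign over 524 alternative values, and 74 moved by more than the SD between libraries.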

Other observations

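Some genes outside the rule met its limits in part, or met them but were left out by symbol. Tnc, the matrix protein tenascin C of the mesenchymal list, measured 89.4, 80.8 and 89.8 TPM in control, 1.3, 1.1 and 1.0 TPM in Runx1KO, and 97.6, 106.0 and 97.0 TPM in ZebDKO libraries, so that a near loss in Runx1KO stood beside a level slightly above control in ZebDKO cells. Socs1, a feedback inhibitor of interferon signalling, measured 14.3, 11.8 and 10.6 TPM in control, 2.3, 2.4 and 2.6 TPM in Runx1KO, and 22.7, 21.7 and 22.4 TPM in ZebDKO libraries, a ZebDKO difference of 0.82. Myl9, a myosin light chain gene of contractile cells, measured 4.5, 3.2 and 4.8 TPM in control, 1.7, 1.1 and 2.4 TPM in Runx1KO, and 10.6, 8.0 and 9.3 TPM in ZebDKO libraries. Col27a1, a fibrillar collagen gene, was the 1 gene that met all conditions on levels but was left out by its symbol, at 2.3, 2.6 and 3.6 TPM in control, 0.4, 0.6 and 0.4 TPM in Runx1KO, and 7.2, 6.9 and 6.9 TPM in ZebDKO libraries. These 4 genes were chosen after their values were seen and carry no test.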
